A study of Mus musculus with 12 samples.

Results

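Bnip3, Bnip3l and Optn are 3 of the 770 genes of the NanoString nCounter Neuroinflammation panel, taken by name from the deposited value table because each encodes a receptor that tethers mitochondria to the autophagy machinery. RNA was counted in 12 samples of microglia, the resident macrophages of the central nervous system (CNS), sorted from C57B6 mice. Aged mice, over 80 weeks old, gave 4 P-ERK1/2 High samples (2, 5, 7 and 8) and 4 P-ERK1/2 Low samples (3, 6, 9 and 12), separated by the amount of phosphorylated ERK1/2, a kinase pair of the MAPK cascade. There were 4 samples of adult microglia from mice 12 to 20 weeks old (samples 1, 4, 10 and 11), which were not divided by ERK1/2 phosphorylation.

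Per the methods, every sample pooled the CNS of one male and one female, and the cells were enriched with CD11b beads, fixed, permeabilized and gated as YFP+, CD45 intermediate and Ly6G-. The labels call mice and cells untreated and name no reporter or Cre allele, whereas the study's legend for these samples places the adult mice shortly after tamoxifen and the aged mice long after it, so age and the interval since tamoxifen cannot be told apart between adult and aged groups. A field shared by all samples reads aged, so age was taken from the titles. Adult sample 11 is labelled as excluded for poor quality and was kept out of the comparisons. The labels do not say whether P-ERK1/2 High and Low cells came from the same aged mice, and the p-values measure only the spread between these samples.

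Mitophagy is the removal of mitochondria by autophagosomes, which deliver them to lysosomes. Bnip3 and Bnip3l (also called NIX) are related proteins of the outer mitochondrial membrane whose BH3-like and LC3-interacting regions link them to the BCL2 family and to the growing autophagosome, and both are classical targets of the hypoxia-inducible factor HIF1. Optn encodes optineurin, a soluble adaptor that binds ubiquitin on mitochondria marked by the kinase PINK1 and the ligase Parkin, and that also takes part in TBK1 and NF-kappaB signalling. Bnip3l is best known for clearing mitochondria from maturing red blood cells, and OPTN for its mutations in amyotrophic lateral sclerosis and glaucoma.

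In the RefSeq annotation of mouse build GRCm38.p6, Bnip3 lies at chr7:138890836-138909506, Bnip3l at chr14:66985238-67008877 and Optn at chr2:5020521-5064399. The bases before a start site of Bnip3 and of Optn are shown because Bnip3 is a textbook HIF1 target and the hypoxia genes of the panel are described further on. Each run holds the 250 bases before the start site that the RefSeq-derived promoter table uses, on the minus strand, read 5′ to 3′, and comes from chr7:138909507-138909756 for Bnip3 and chr2:5064118-5064367 for Optn. The Bnip3 run abuts the gene interval, but the Optn run lies inside the Optn interval given above, which extends further upstream than the start site used. Capitals mark ACGTG and GCGTG, the core letters of the hypoxia response element, and their reverse complements CACGT and CACGC.
Bnip3: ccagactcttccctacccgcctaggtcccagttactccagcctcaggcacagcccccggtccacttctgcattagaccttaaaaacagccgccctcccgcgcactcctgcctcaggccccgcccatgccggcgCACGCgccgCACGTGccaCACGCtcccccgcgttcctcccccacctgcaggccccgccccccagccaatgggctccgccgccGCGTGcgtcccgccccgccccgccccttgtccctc
Optn: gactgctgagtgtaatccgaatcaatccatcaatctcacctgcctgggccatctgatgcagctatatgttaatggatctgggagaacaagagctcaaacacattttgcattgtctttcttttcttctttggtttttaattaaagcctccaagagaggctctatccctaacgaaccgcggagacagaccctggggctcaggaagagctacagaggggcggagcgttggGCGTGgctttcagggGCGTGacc

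The Bnip3 run held 5 matches to these letters on either strand. A pair of them overlaps as the palindrome CACGTG, which starts 108 bases before that start site. The Optn run held 2 matches, both GCGTG, starting 23 and 8 bases before the start site used and so inside the gene interval. Of 32851 RefSeq windows of the same length, 38.6% held ACGTG or GCGTG on either strand, 16.6% held ACGTG and 6.02% held CACGTG. A match of letters is a description of the sequence and shows no binding.

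Values are deposited counts multiplied by one factor per sample, which brings the geometric mean of 13 housekeeping genes to 172.7 in every sample, and are called normalized values here. Differences are on the scale of log2(value + 1). Calls required a limma p below 0.01 together with a log2 difference larger than 1 in size. The recovered counts of a sample totalled 650965 to 1539936 for P-ERK1/2 High, 123798 to 157209 for Low and 137980 to 326575 for adult without sample 11. A gene was taken as above background where its count exceeded the mean plus 2 SD of the 8 negative control probes of the sample. By that rule 589 to 673 genes were above background in P-ERK1/2 High, 410 to 484 in Low and 417 to 560 in adult. Of the 13 housekeeping genes, 12 were above background in all P-ERK1/2 High samples, 7 in all Low samples and 9 in all kept adult samples. Depth and detection therefore moved with the groups, and their part in the differences was not tested.

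The microglial label was checked against 10 microglia markers. All 10 were above background in every P-ERK1/2 High sample, 7 in every adult sample and 4 in every Low sample, where P2ry12 and Gpr34 were above background in no sample. The summed value of the 10 markers was 7515 to 11042 in P-ERK1/2 High, 9141 to 10391 in Low and 7124 to 8168 in adult, and was mostly Trem2, Csf1r and Itgam. Behind this sum, P2ry12 (1.91), Tmem119 (2.02), Gpr34 (1.13), Sall1 (1.70) and Itgam (1.21) were called higher in P-ERK1/2 High than in Low, as log2 differences by the rule given above, while Csf1r (-0.84) and Trem2 (-0.52) lay below 0 and were not called. In P-ERK1/2 Low against adult, Tmem119 (-1.03), Olfml3 (-1.56) and Fcrls (-2.31, the lowest of the 770) were called lower, while Cx3cr1 (0.79), Trem2 (0.65) and Csf1r (0.58) lay above 0 and were not called. Tmem119 and Sall1 were each above background in 1 Low sample. The size of the differences of P2ry12, Gpr34, Tmem119 and Sall1 from Low is therefore uncertain. The part of these differences in the levels of the 3 receptors was not tested. In these bulk samples, fewer cells of a type and less RNA per cell cannot be told apart.

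Bnip3 was lower, and Bnip3l and Optn were higher, in P-ERK1/2 High than in Low microglia as deposited, the difference of Bnip3 turning positive with no scaling or positive-control scaling. All 3 genes were above background in all 12 samples, and all 3 were called in this comparison, where 37.8% of all 770 genes were called. The 2 genes called higher stand beside 28.2% of all genes called higher, and the 1 called lower beside 9.61% called lower. The samples of both groups did not overlap for any of the 3, nor for 49.4% of all genes (31.3% with P-ERK1/2 High above, 18.1% with it below).

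**Figure D1:**
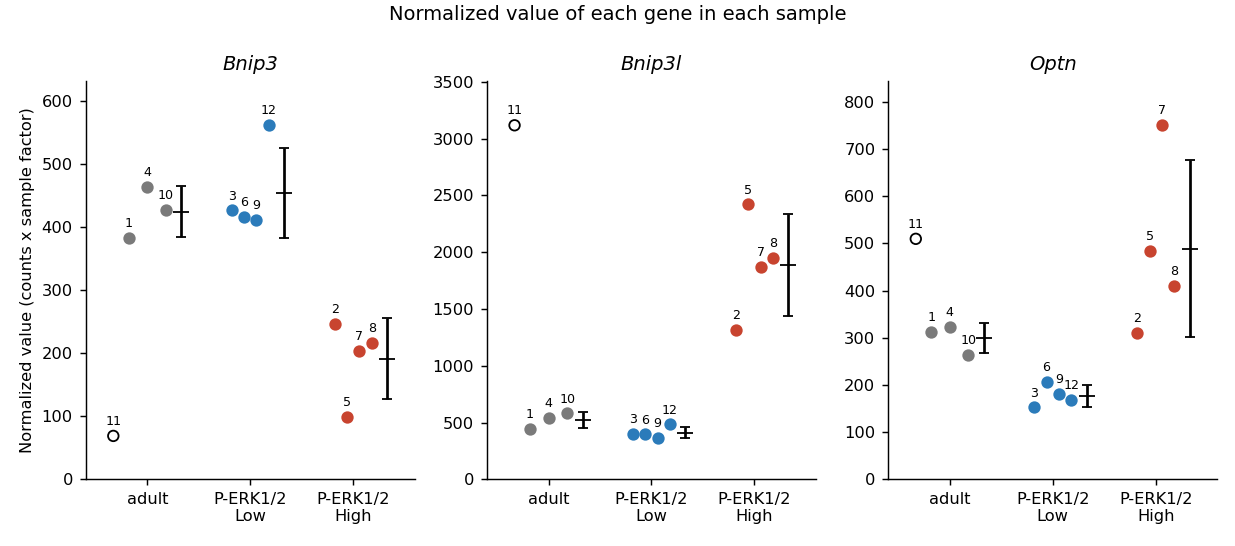
Normalized value of Bnip3, Bnip3l and Optn (linear axis from 0) in each sample, with sample numbers; grey, adult; blue, P-ERK1/2 Low; red, High; open circle, excluded adult sample 11; bars, mean ± SD of the kept samples. The 4 P-ERK1/2 High samples sit below all Low and kept adult samples for Bnip3 and above them for Bnip3l, and for Optn above Low but overlapping adult.

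Bnip3, the mitochondrial receptor named for its binding to BCL2 and the adenoviral E1B protein, had normalized values of 247.11, 99.35, 204.37 and 216.65 in P-ERK1/2 High samples 2, 5, 7 and 8. In P-ERK1/2 Low samples 3, 6, 9 and 12 its values were 426.92, 417.19, 411.98 and 562.01. In adult samples 1, 4 and 10 they were 383.44, 464.63 and 427.45. The 4 P-ERK1/2 High samples were the lowest of the 11, with sample 5 farthest down, and sample 12 stood above the other Low samples. The group means were 192 ± 64.2 in P-ERK1/2 High (SD, n = 4), 455 ± 71.9 in Low (SD, n = 4) and 425 ± 40.6 in adult (SD, n = 3). P-ERK1/2 Low and adult overlapped, so the order of their means is not beyond their spread.

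The limma log2 difference of Bnip3 between P-ERK1/2 High and Low was -1.31 (SE 0.29, 95% confidence interval -1.95 to -0.67, adjusted p = 0.003). It was the 27th lowest of the 770 differences. Between P-ERK1/2 High and adult the limma difference was -1.22 (SE 0.33, interval -1.94 to -0.50, adjusted p = 0.011), again without overlap. Between P-ERK1/2 Low and adult it was 0.09 (interval -0.29 to 0.47, limma adjusted p = 0.72). The recovered Bnip3 counts behind these values ran from 139 to 203 in P-ERK1/2 High, 119 to 154 in Low and 169 to 399 in adult, so High and Low overlapped in counted molecules and separated only after the sample factors were applied. Scaled on the 6 most stable housekeeping genes, the difference from P-ERK1/2 Low was -0.76 and not called, and scaled on the positive control probes it was 0.67.

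Bnip3l, the closest relative of Bnip3, had normalized values of 1317.1, 2420.9, 1867.43 and 1946.09 in P-ERK1/2 High samples 2, 5, 7 and 8. In P-ERK1/2 Low samples 3, 6, 9 and 12 they were 399.81, 396.15, 366.5 and 484.07. In adult samples 1, 4 and 10 they were 442.43, 539.16 and 580.63. Every P-ERK1/2 High sample was above all 7 other kept samples, and sample 5, the lowest for Bnip3, was the highest for Bnip3l. The means were 1888 ± 452 in P-ERK1/2 High (SD, n = 4), 521 ± 70.9 in adult (SD, n = 3) and 412 ± 50.5 in Low (SD, n = 4), the last pair overlapping.

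The limma log2 difference of Bnip3l was 2.17 between P-ERK1/2 High and Low (SE 0.24, 95% confidence interval 1.65 to 2.69, adjusted p = 2.1e-05), the 55th highest of the 770. Set against adult, P-ERK1/2 High differed by 1.83 (SE 0.27, interval 1.23 to 2.43, limma adjusted p = 0.00035). Between P-ERK1/2 Low and adult it was -0.34 (SE 0.16, interval -0.71 to 0.04, limma adjusted p = 0.17). Recovered Bnip3l counts ran from 1082 to 3387 in P-ERK1/2 High, 113 to 137 in Low and 195 to 463 in adult. The P-ERK1/2 High against Low difference was called under all 14 alternatives of the processing and with each of the 8 samples left out, between 1.14 and 4.15 over the former and 2.04 and 2.33 over the latter.

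Optn, the ubiquitin-binding adaptor, had normalized values of 310.41, 484.61, 750.11 and 410.5 in P-ERK1/2 High samples 2, 5, 7 and 8. In P-ERK1/2 Low samples 3, 6, 9 and 12 they were 152.47, 206.84, 181.91 and 168.19. In adult samples 1, 4 and 10 they were 313.11, 322.57 and 264.37. P-ERK1/2 Low was the lowest group without overlap with either other group, and High sample 2 lay inside the adult range. The means were 489 ± 188 in P-ERK1/2 High (SD, n = 4), 300 ± 31.2 in adult (SD, n = 3) and 177 ± 23 in Low (SD, n = 4).

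The limma log2 difference of Optn was 1.39 between P-ERK1/2 High and Low (SE 0.28, 95% confidence interval 0.79 to 1.99, adjusted p = 0.0014), ranking 166th highest of 770. Between P-ERK1/2 Low and adult it was -0.76 (SE 0.16, interval -1.13 to -0.39, limma adjusted p = 0.011), which did not reach the fold limit and was not called as deposited. It was called under 4 of 15 alternatives (down to -1.6). In that comparison 10.8% of all genes were called, and groups did not overlap in 36.5% (26.1% higher and 10.4% lower in P-ERK1/2 Low). Between P-ERK1/2 High and adult, where 36.9% of genes were called, the Optn difference was 0.63 (SE 0.31, interval -0.06 to 1.32, limma adjusted p = 0.11). That difference turned negative under 2 of 15 alternatives (down to -0.78) and was called under 3 (up to 1.8). The Optn counts in P-ERK1/2 Low were 41 to 68, only 1.44 to 2.63 times the background of each sample, against 255 to 678 in High. With the negative-control mean subtracted the P-ERK1/2 High against Low difference was 1.68, and with all genes summed to one total it was 0.37 and not called.

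**Figure D2:**
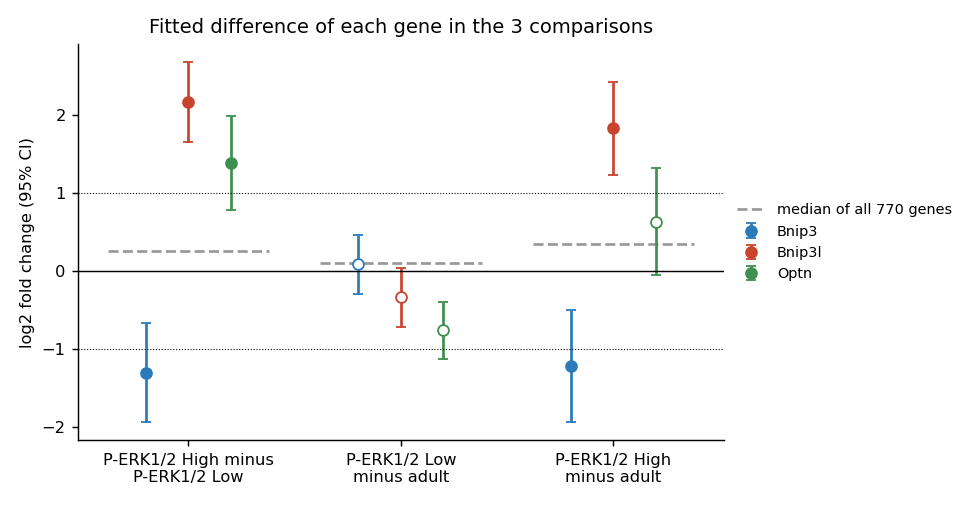
Fitted log2 fold change of Bnip3 (blue), Bnip3l (red) and Optn (green) with 95% confidence intervals in the 3 comparisons; filled points were called, dotted lines mark the fold limit, and dashed lines the median of all 770 genes. In P-ERK1/2 High minus Low, as deposited, the Bnip3 interval lies below 0 and those of Bnip3l and Optn above 0, and none of the 3 was called in Low minus adult.

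Across the comparisons, 3 of 3 genes were called in P-ERK1/2 High against Low, 2 of 3 in High against adult and 0 of 3 in Low against adult. In the last of these, 1 of the 3 (Optn) was under 0.05 in limma before adjustment, beside 39.0% of all genes. Groups did not overlap for 2 of 3 genes in P-ERK1/2 High against adult, beside 50.3% of all genes (35.1% higher, 15.2% lower). With adjusted limma p under 0.05 at any fold, 3, 2 and 1 of the 3 passed in the same order, beside 52.2%, 48.2% and 26.0% of all genes. The comparisons share their samples in pairs and are not independent of each other. The difference of P-ERK1/2 High from adult was called neither for Bnip3 (-0.57) nor for Bnip3l (1.19) when the excluded adult sample was added. The call for Bnip3 against adult was also lost without P-ERK1/2 High sample 5 (-0.93), adult sample 4 (-1.15) or adult sample 10 (-1.21). Of 15 alternatives of the processing, the added adult sample among them, 7 ended this call of Bnip3 and 3 that of Bnip3l. In P-ERK1/2 Low against adult, 4 of 15 called Optn and 2 called Bnip3l.

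Ratios of the genes within a sample, each taken as value + 1, depend only slightly on the sample factor and show how far the genes moved apart. Since probes differ in efficiency, a ratio is compared between samples only. Bnip3l over Bnip3 was 5.31, 24.1, 9.1 and 8.95 in P-ERK1/2 High samples 2, 5, 7 and 8. It was 0.937, 0.95, 0.89 and 0.862 in P-ERK1/2 Low samples 3, 6, 9 and 12, and 1.15, 1.16 and 1.36 in adult samples 1, 4 and 10. P-ERK1/2 High was highest in every sample, Low varied least, and no groups overlapped.

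The mean log2 ratio of Bnip3l over Bnip3 was 3.34 ± 0.91 in P-ERK1/2 High and -0.14 ± 0.07 in Low (SD, n = 4 each), a difference of 3.48 or 11.1-fold (exact two-sided permutation test, p = 0.029, adjusted p = 0.073 over 9 tests). This p is the smallest that 70 labelings allow. In every P-ERK1/2 High sample Bnip3l was higher and Bnip3 lower than in every Low or kept adult sample. That fixed the separation of this ratio, so its p is no evidence beyond the single genes. The mean in adult was 0.29 ± 0.13 (SD, n = 3), and P-ERK1/2 High exceeded it by 3.05 (exact permutation p = 0.057, the smallest that 35 labelings allow), or by 1.75 with the excluded adult sample added. P-ERK1/2 Low was below adult by a log2 difference of -0.43 (exact permutation p = 0.057), or of -1.72 with the excluded adult sample added.

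Optn over Bnip3 also separated all groups, at a mean log2 ratio of 1.35 ± 0.89 in P-ERK1/2 High, -1.35 ± 0.32 in Low and -0.50 ± 0.20 in adult. P-ERK1/2 High exceeded Low by 2.70 or 6.49-fold (exact permutation p = 0.029, adjusted p = 0.073). This separation was also fixed, since neither Optn nor Bnip3 overlapped between P-ERK1/2 High and Low. Bnip3l over Optn was 1.99 ± 0.46, 1.21 ± 0.29 and 0.79 ± 0.32 in the same order. The first pair of these overlapped, and their difference was 0.78 (exact permutation p = 0.086). Against adult, the Bnip3l over Optn difference of P-ERK1/2 High was 1.20 (exact permutation p = 0.057), without overlap. After adjustment none of the 9 ratio tests had p under 0.05. Before it 2 of the 9 did, both with a separation fixed by the values of the single genes.

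**Figure D3:**
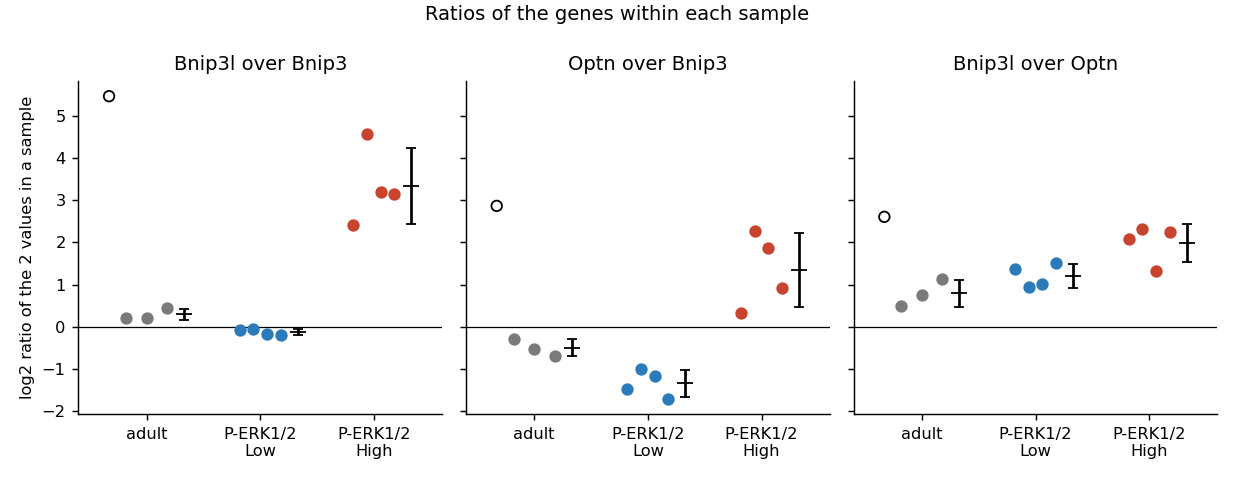
log2 ratio of each pair of genes in each sample, grey, adult; blue, P-ERK1/2 Low; red, High; open circle, excluded adult sample 11; bars, mean ± SD of the kept samples. Bnip3l over Bnip3 lies near 0 in the adult and P-ERK1/2 Low samples and between 2.41 and 4.59 in the 4 High samples.

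Because the housekeeping genes set the scale, each gene was also set against each of the 13. Bnip3 was lower in P-ERK1/2 High than in Low relative to all 13, from -4.64 (Supt7l) to -0.08 (Lars) in log2, with a median of -0.79. Bnip3l was higher relative to 12, with a median of 2.69, the exception being Supt7l (-1.17). Optn was higher relative to the same 12, with a median of 1.91. Supt7l, a subunit of a transcription coactivator complex, varied most among the housekeeping genes, with 792 ± 97.5 in P-ERK1/2 High and 77.5 ± 9.3 in Low (SD, n = 4 each). It was above background in 1 Low sample. Of the 13, 7 were above background in all Low samples and 9 in all kept adult samples. The size of the differences relative to the others is uncertain. Against adult, Bnip3 in P-ERK1/2 High was again lower relative to all 13 (-4.28 to -0.04) and Bnip3l higher relative to 12.

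**Figure D4:**
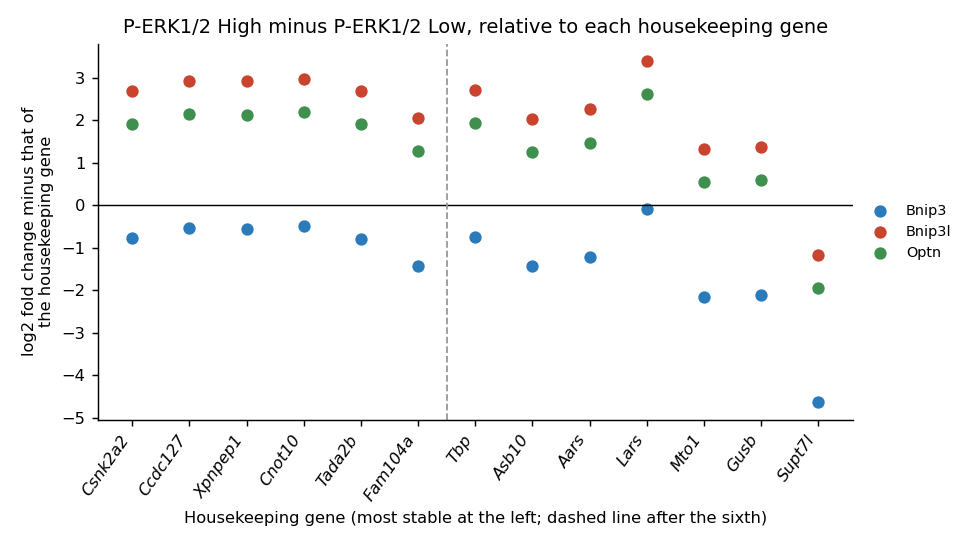
Fitted log2 fold change (P-ERK1/2 High minus Low) of Bnip3 (blue), Bnip3l (red) and Optn (green) minus that of each housekeeping gene, ordered from the most to the least stable. Bnip3 lies below 0 for all 13, and Bnip3l and Optn above 0 for all but Supt7l. Of the 13, 7 were above background in all Low samples.

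The direction of Bnip3 alone among the 3 turned between P-ERK1/2 High and Low with the scaling. The median of all 770 log2 differences was 0.26 as deposited, 0.80 on the 6 most stable housekeeping genes, 2.14 on the positive controls, 1.86 with no scaling and -0.76 with equal totals. Bnip3 was at -1.31, -0.76, 0.67, 0.37 and -2.33 in the same order. These settings change only the factor of each sample and so shift all genes by nearly the same amount. The place of Bnip3 below the median under each of them is therefore no repeated observation. Bnip3l was above the median at 2.17 as deposited. Of the 291 genes called as deposited, 217 were higher and 74 lower, against 310 and 8 on the 6 housekeeping genes, 174 and 124 with median-of-ratios factors, 147 and 142 after quantile normalization, 59 and 311 with equal totals and 658 and 0 on the positive controls.

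Genes that act before or after these receptors were taken from 7 lists. In P-ERK1/2 High against Low, the called genes of autophagosome formation, lysosome fusion and mitochondrial proteins were higher, as were Bnip3l and Optn, and the called BCL2 family genes were lower, as was Bnip3. The counts below stand beside 28.2% of all genes called higher and 9.61% called lower. Among the other mitophagy genes 1 of 4 was called, higher, with a list median of 0.57 beside 0.26 for all genes. Calcoco2, which encodes the adaptor NDP52, had a fitted difference of 1.59 (limma adjusted p = 0.0046), with values of 81.8 ± 44.4 and 26.5 ± 13.5 (SD, n = 4 each), above background in 4 and 0 samples. It was not called by the plain test with unequal variances, with equal totals (0.59) or after subtraction of the 10th percentile. Pink1, the kinase that marks damaged mitochondria, had 0.90, Sqstm1, the adaptor p62, 0.24, and Ambra1, a cofactor of Beclin 1, -0.34, and none of these was called. Without P-ERK1/2 High sample 2, 2 of the 4 were called.

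Of 9 genes of autophagosome formation, 4 rose and 0 fell, with a median of 0.98. Atg3, the enzyme that conjugates LC3 to lipid, rose by 2.38 (2409 ± 486 against 460 ± 71.9), Map1lc3a, which encodes an LC3 protein, by 1.71 (601 ± 48.3 against 184 ± 24.6), Atg5 of the conjugation complex by 1.58 and Atg9a, the lipid scramblase, by 1.54 (limma adjusted p = 1e-05, 4.1e-05, 0.00021 and 0.0029). Of 6 genes of lysosome fusion, 4 rose and 0 fell, with a median of 1.74. The lysosomal membrane protein Lamp1 rose by 2.59, the SNARE Vamp7 by 2.39 and the tethers Epg5 and Plekhm1 by 2.27 and 1.21 (limma adjusted p = 1.3e-05, 2.1e-05, 1.2e-05 and 0.0012). Epg5 was above background in 1 P-ERK1/2 Low sample. With equal totals, Atg5, Atg9a, Map1lc3a and Plekhm1 were no longer called. Plekhm1 was not called with median-of-ratios factors or after quantile normalization either, nor Atg9a by the plain test.

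Of 7 genes for mitochondrial proteins, 5 rose and 0 fell, with a median of 1.26. Coa5, an assembly factor of cytochrome c oxidase, rose by 2.12 (1884 ± 702 against 414 ± 52.5), Cycs, cytochrome c, by 1.58, Cox5b, a subunit of cytochrome c oxidase, by 1.54, the ferredoxin reductase Fdxr by 1.26 and the sterol hydroxylase Cyp27a1 by 1.19. No P-ERK1/2 Low sample had Cycs, Fdxr or Cyp27a1 above background, and Cycs was above it in 2 High samples, so the size of these 3 differences is uncertain. With a pseudocount of 20 none of the 3 was called (0.88, 0.83 and 0.98). Fdxr and Cyp27a1 were also not called with median-of-ratios factors (0.99 and 0.92) or after quantile normalization (0.99 and 0.82), nor Cycs and Cyp27a1 by the plain test. Without P-ERK1/2 High sample 5, Cyp27a1 was not called (0.92). With equal totals, 1 of the 7 was called.

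Of 6 genes of the hypoxia response, 2 rose and 1 fell, the first a share near that of all genes (28.2%), with a median of -0.06 beside 0.26 for all genes. Vegfa, the vascular growth factor, rose by 1.74 (761 ± 247 against 220 ± 31.5), and the histone demethylase Kdm3a by 1.60 (limma adjusted p = 0.00021 and 0.00035). With equal totals neither was called (0.72 and 0.58). Slc2a1, the glucose transporter GLUT1, fell by 1.24 (limma adjusted p = 0.0057), but was at 0.73 on the positive controls, was not called on the 6 housekeeping genes (-0.70), by the plain test or after subtraction of the negative-control mean, and was not called without P-ERK1/2 High sample 5 (-0.96). The lipid droplet gene Hilpda had -0.99, the lactate dehydrogenase gene Ldha -0.66 and Hif1a itself 0.54, none of them called.

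Of 13 BCL2 family genes, 0 were called higher and 6 lower, beside 9.61% of all genes called lower, with a median of -0.85. The antiapoptotic genes Bcl2a1a, Bcl2l1 (BCL-XL) and Bcl2l2 (BCL-W) fell by 1.26, 1.19 and 1.16, and the proapoptotic Bcl2l11 (BIM) by 1.85. Bcl2l11 was above background in 2 P-ERK1/2 High and 3 Low samples. The proapoptotic Bok was called lower at -1.06 but was above background in 3 P-ERK1/2 High samples and 1 Low sample, so the size is uncertain. The sixth call, proapoptotic Bbc3 (PUMA), rests on counts above background in none of these 8 samples and is no measured change. Scaling on the positive controls, which moved the median of all genes to 2.14, put all 6 between -0.03 (Bbc3) and 0.87 (Bok). This scaling shifts all genes by nearly the same amount, so their place below that median is no separate observation. On the 6 most stable housekeeping genes Bcl2a1a (-0.71), Bcl2l1 (-0.65), Bcl2l2 (-0.62) and Bok (-0.53) were not called. With a pseudocount of 20 neither Bcl2l2 (-0.97) nor Bok (-0.76) was called, and Bok was also not called by the plain test, with the shared spread or after either background subtraction. The call for Bok was lost without P-ERK1/2 High sample 5 (-0.95), 7 (-0.93) or 8 (-1.03) or Low sample 12 (-0.98), and that for Bcl2l2 without High sample 5 (-0.99).

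Optineurin shares ubiquitin binding with NEMO, and 7 genes of NEMO and innate signalling were followed for it. Of these, 0 rose and 1 fell, with a median of -0.08. Ikbkg, which encodes NEMO, fell by 1.11 (128 ± 34.4 against 269 ± 16.7, limma adjusted p = 0.0026), was at 0.86 on the positive controls, and was not called on the 6 housekeeping genes (-0.57), by the plain test, with a pseudocount of 20 or without P-ERK1/2 High sample 5 (-0.92). The interferon regulator Irf3 had -0.98, the kinase gene Ikbke -0.73, Ripk1 -0.08, the ubiquitin ligase gene Traf3 0.26, the mitochondrial adaptor gene Mavs 0.36 and Tmem173, which encodes STING, 0.93, none of them called. The count was 2 without P-ERK1/2 High sample 2 or Low sample 3, 3 without High sample 7 and 0 without High sample 5.

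**Figure D5:**
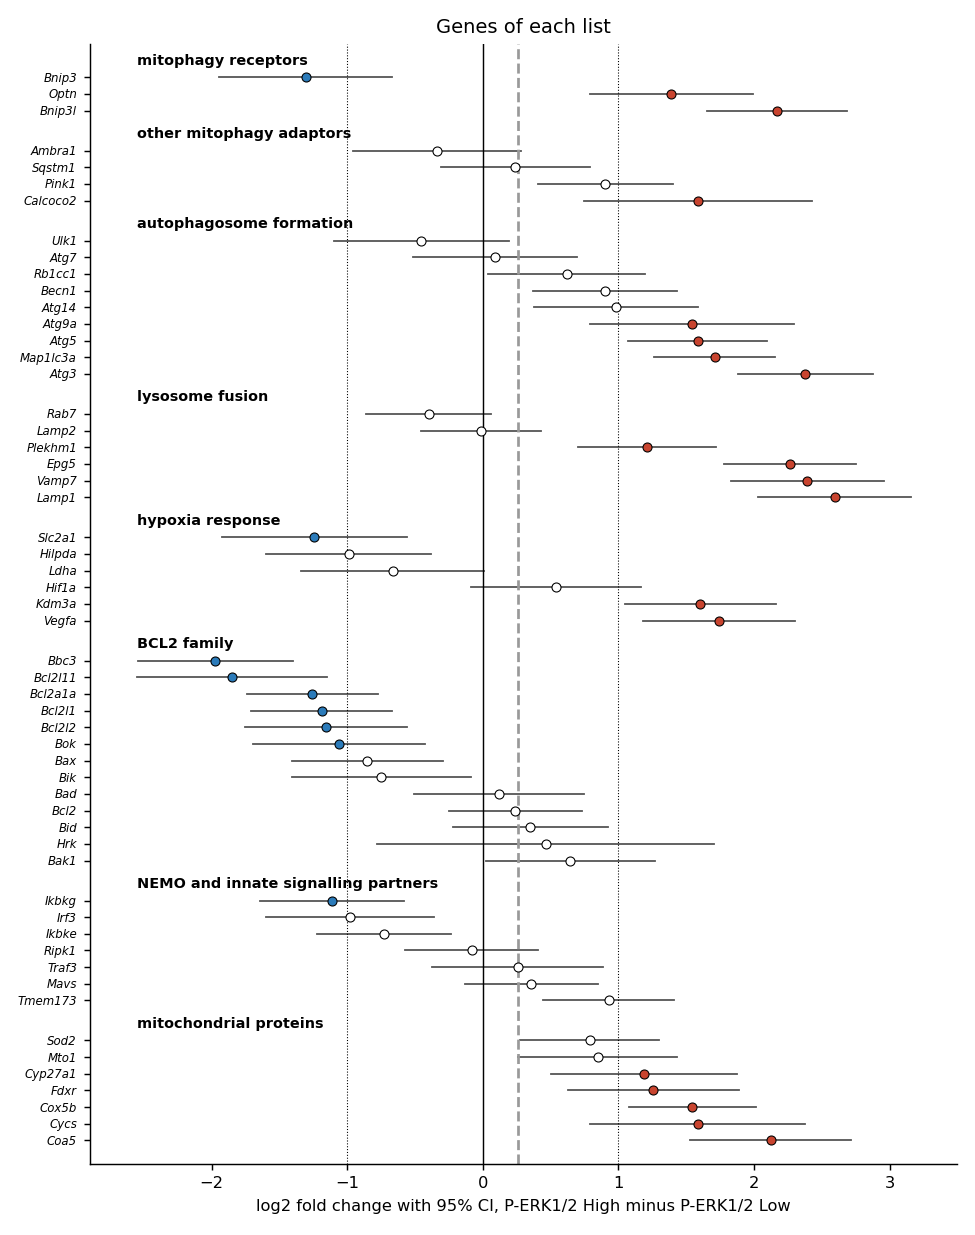
Fitted log2 fold change with 95% confidence interval of each gene of the 3 receptors and the 7 lists, P-ERK1/2 High minus Low; red, called higher; blue, called lower; white, not called; dotted lines, fold limit; dashed line, median of all 770 genes (0.26). Called genes of autophagosome formation, lysosome fusion and mitochondrial proteins lie above 1, and those of the BCL2 family below -1.

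Between P-ERK1/2 Low and adult, where 8.05% of all genes were called higher and 2.73% lower, 4 of the genes on the 7 lists were called. Ldha and Hilpda, both of the hypoxia list, rose by 1.30 and 1.15, and Hif1a fell by 1.09 (limma adjusted p = 0.0028, 0.0018 and 0.0016). With all 4 adult samples Ldha (0.97) and Hilpda (0.94) were not called, nor were they with equal totals (0.92 and 0.76), with no scaling (0.45 and 0.30) or on the positive controls (0.49 and 0.33), nor Hilpda with a pseudocount of 20 (0.99). Ldha was 7383 ± 1310 in P-ERK1/2 Low (SD, n = 4) and 2990 ± 554 in adult (SD, n = 3), and Hif1a was 662 ± 56 and 1405 ± 99.1. The hypoxia genes Vegfa (0.47), Slc2a1 (0.21) and Kdm3a (-0.56) were not called. Atg14, a subunit of the Beclin 1 lipid kinase complex, was called lower at -1.15 (limma adjusted p = 0.011) with 0 of 4 P-ERK1/2 Low samples above background, so the size is uncertain. It was not called without P-ERK1/2 Low sample 12 (-0.99), with a pseudocount of 20 (-0.92) or after subtraction of the negative-control mean.

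The other genes of autophagosome formation lay between -0.89 (Ulk1, the initiating kinase) and 0.55 (Atg9a), those of lysosome fusion between -0.32 (Plekhm1) and 0.42 (Lamp2) and the other mitophagy genes between -0.73 (Sqstm1) and 0.19 (Pink1). The mitochondrial proteins lay between -0.67 (Cycs) and 0.31 (Cox5b), and the NEMO list between -0.43 (Traf3) and 0.58 (Ikbke). Of the 13 BCL2 family genes 0 were called, with a median of 0.39, and 1 was called, higher, without P-ERK1/2 Low sample 9.

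Between P-ERK1/2 High and adult, where 29.2% of all genes were called higher and 7.66% lower, 3 of 6 genes of lysosome fusion rose, Lamp1 by 2.81, Vamp7 by 2.34 and Epg5 by 2.02. Of autophagosome formation 5 of 9 rose, Atg3 by 2.25, Atg9a by 2.09, Map1lc3a by 1.94, Atg5 by 1.79 and Becn1, which encodes Beclin 1, by 1.10. Ulk1 was called lower at -1.35, a call lost under 7 of 15 alternatives, among them the 6 housekeeping genes (-0.80), no scaling (-0.53), the positive controls (-0.18) and the plain test. Among the other mitophagy genes Pink1 rose by 1.09. Calcoco2 was called higher with a fitted 1.39, but was above background in none of the 3 kept adult samples, so the size is uncertain. Sqstm1 had -0.49 and Ambra1 -0.50, and neither was called. Of the mitochondrial proteins Coa5 rose by 2.38, Cox5b by 1.85 and Mto1, a tRNA modification gene that is also one of the housekeeping genes, by 1.05. Fdxr was called higher with a fitted 1.23, also against 0 of 3 adult samples above background.

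In the same comparison Vegfa rose by 2.21 and Kdm3a by 1.04, while Slc2a1 (-1.04), Hif1a (-0.55), Ldha (0.64) and Hilpda (0.16) were not called. Of the BCL2 family Bak1, a pore-forming member, rose by 1.26, and Bbc3, Bcl2l11 and Bcl2l2 were called lower at -2.12, -2.03 and -1.08. Bbc3 was above background in 0 of 4 P-ERK1/2 High samples and Bcl2l11 in 2, so their sizes are uncertain. Tmem173 was called higher with a fitted 1.39, against 1 of 3 kept adult samples above background, and Ikbkg and Irf3 fell by 1.25 and 1.09. With the excluded adult sample added, Epg5 and Calcoco2 of these genes were still called. With equal totals Lamp1 was the only list gene still called higher, and the differences of Becn1, Pink1, Fdxr, Mto1, Kdm3a, Bak1 and Tmem173 turned negative. Median-of-ratios factors ended the calls of Bak1, Becn1, Calcoco2, Fdxr, Kdm3a, Mto1 and Pink1, and quantile normalization those of Atg5, Bak1, Becn1, Cox5b, Kdm3a, Mto1 and Pink1. Of the lower calls, those of Bcl2l2, Ikbkg, Irf3 and Ulk1 were lost on the 6 housekeeping genes, and those of Bbc3 and Bcl2l11 as well with no scaling or on the positive controls. The plain test did not call Bak1, Bcl2l2, Calcoco2, Fdxr, Irf3, Kdm3a, Mto1, Tmem173 and Ulk1, and a pseudocount of 20 ended the calls of Bcl2l2, Calcoco2, Fdxr, Irf3, Kdm3a and Mto1. After subtraction of the 10th percentile Bak1, Bcl2l11, Bcl2l2, Calcoco2 and Ulk1 were not called, and after that of the negative-control mean Calcoco2 and Ulk1 were not.

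Single samples decided several of these calls against adult. Without P-ERK1/2 High sample 5, Pink1 (0.98), Becn1 (0.94), Fdxr (1.03), Mto1 (0.91), Kdm3a (0.85), Irf3 (-0.89) and Bcl2l2 (-0.92) were not called. Without adult sample 1, Pink1 (0.98), Calcoco2 (1.24), Becn1 (1.01), Mto1 (1.06), Kdm3a (1.02), Irf3 (-1.11) and Bcl2l2 were not called. Without adult sample 4, Ulk1 (-1.23), Fdxr (0.95), Mto1 (1.03) and Kdm3a (1.00) were not called. Without adult sample 10, Bak1 (1.11), Mto1 (1.05), Irf3 (-1.05) and Bcl2l2 (-1.10) were not called, and without P-ERK1/2 High sample 8 Fdxr (1.18) was not.

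The genes whose log2 values followed each receptor most closely over the 11 kept samples are given as a description, since these samples share group and depth. Bnip3 was closest to Ak1, adenylate kinase 1 (Pearson r = 0.983), Pdpn, podoplanin (0.979), and Smarca4, a chromatin remodelling ATPase (0.977). Within groups, as deviations from the group means, these r were 0.93, 0.91 and 0.92. Bnip3l was closest to the histone demethylase gene Kdm1a (0.988), the DNA glycosylase gene Mpg (0.988) and Eif1, a translation initiation factor (0.985), with 0.83, 0.79 and 0.73 within groups. Optn was closest to the microglia marker Tmem119 (0.982), Trp53bp2 (0.981) and the caspase-8 regulator Cflar (0.973), with 0.92, 0.91 and 0.87 within groups.

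Markers of other cell types also moved with the groups. The summed value of 5 astrocyte markers was 1200 to 1925 in P-ERK1/2 High, 546 to 792 in Low and 418 to 646 in adult. Most of that sum was Gja1 (means of 877 in P-ERK1/2 High and 343 in Low) and Sox9 (544 and 147), whereas Slc1a3 (30.7 and 60.0) and S100b (35.6 and 48.7) went the other way. The sum of 5 endothelium markers was 470 to 856, 175 to 258 and 241 to 340. The 6 T and NK cell markers summed to 239 to 974, 90.2 to 146 and 86.2 to 200, mostly by Cd3e, which had a mean of 357 in P-ERK1/2 High and 21.8 in Low, with the other 5 markers between 8.57 and 53.8 in High. The 4 monocyte and border macrophage markers summed to 175 to 249, 126 to 189 and 119 to 168. The 3 neutrophil markers summed to 128 to 490, 283 to 423 and 603 to 949, with Ly6g above background in no kept sample. The 5 neuron markers summed to 185 to 376, 173 to 235 and 164 to 195. Rbfox3 was called higher in P-ERK1/2 High (148, above background in 4 samples) than in Low (25.1, in 0). The calls of Nefl and Tubb3, both lower, rest on values above background in 1 and 2 P-ERK1/2 High and 0 and 1 Low samples and are no measured change. The 5 oligodendrocyte markers summed to 156 to 301, 119 to 168 and 157 to 274, and the 2 B cell markers to 30.4 to 45.0, 36.9 to 72.2 and 27.9 to 81.7. In P-ERK1/2 Low, all 6 T and NK cell markers, 4 of 5 endothelium markers (not Emcn) and 3 of 5 astrocyte markers (Slc1a3, Aldh1l1 and S100b) were above background in no sample, while Gja1 and Sox9 were above it in all 4. The same held there for all 5 oligodendrocyte, 4 of 5 neuron, 2 of 2 B cell and 3 of 4 monocyte and border macrophage markers, so such sums are near background. Gja1, Sox9, Cldn5, Esam, Emcn, Cd3e, Cd3g and Cd163 were called higher in P-ERK1/2 High than in Low. No marker of these lists besides Nefl and Tubb3 was called lower. The part of such cells in the levels of Bnip3, Bnip3l and Optn was not tested.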

How the data were processed

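RNA of fixed, sorted microglia was profiled with NanoString's Neuroinflammation panel, which counts colour-coded probes without amplification, in 12 samples. The authors used nSolver (version not given in the sources used here) and deposited 1 signal value per gene and sample: the raw count times one factor per sample, without background subtraction. All gene values were divided by the step of their sample, and 99.7% gave whole counts to within 0.1. The 8 negative and 6 positive control probes are listed as raw counts. All 12 columns were mapped by sample, and 0 were left out. Of 770 gene names, 763 matched a current RefSeq symbol and 7 a synonym.

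Each comparison was fitted on its own 2 groups on log2(value + 1), unfiltered, with limma 3.58.1 (R 4.3.3), with Benjamini-Hochberg adjustment over all 770 genes. Ratios of 2 genes were compared with exact two-sided permutation tests, adjusted over 9 tests. On simulated data with 200 of 770 genes changed by 2 log2 units, the fit recovered 94.5% (0 false calls) in a simulated P-ERK1/2 High minus Low contrast, 90.5% (0 false) in Low minus adult and 96% (4 false) in High minus adult. The 3 genes and all lists were chosen with earlier results of these data known. Named are the 3 genes, list genes that were called or, where fewer than 3 of a list of up to 9 were called, its members (in P-ERK1/2 Low minus adult, mostly the extremes), the 3 genes most correlated with each, and housekeeping genes. Tried instead were a pseudocount of 0.1 or 20, genes averaging 50 or more, 5 other scalings, a subtracted 10th percentile, a shared spread, a plain test with unequal variances, adjusted p under 0.05, all 4 adult samples and each sample left out. Positive-control scaling and subtraction of the negative-control mean were added after seeing the data.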

Additional observations from a re-analysis of the deposited data

Results flagged for a closer look

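Bnip3 in P-ERK1/2 Low sample 12 was 562.01, far above the other 3 samples of its group: its gap to the nearest of them was 0.885 of the range, beyond the 95% critical value of 0.829 for 4 samples. This was 1 of 12 measures tested, and chance alone passes about 1 in 20 such tests. The recovered Bnip3 count of sample 12 was 137, inside the range of the other Low samples (119 to 154). Its value stood out only after scaling, as sample 12 had the largest sample factor (4.1022). Bnip3l was also highest there among the Low samples (484.07). Without sample 12 the log2 difference of Bnip3 between P-ERK1/2 Low and adult was -0.02 in place of 0.09. Bnip3l in adult sample 11, which the labels exclude, was 3116.59, above all 3 kept adult samples. Optn in the same sample was 509.61, also above all 3, while Bnip3 was 69.03, the lowest of all 12 samples. In sample 11 Bnip3l over Bnip3 was 44.5, the geometric mean of its positive controls was 286 counts against 954 to 1460 in the kept samples, and its recovered total was 1464449 counts.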

How the results depend on the processing

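Between P-ERK1/2 High and Low, Bnip3l was called under all 14 alternatives, Optn under 13 and Bnip3 under 10. Optn was 0.37 with equal totals. Bnip3 was -1.31 but not called by the plain test with unequal variances, -0.76 on the 6 most stable housekeeping genes, 0.37 with no scaling and 0.67 on the positive controls. With no scaling and on the positive controls, in that order, the differences of list genes turned to 0.42 and 0.73 for Bcl2a1a, 0.48 and 0.79 for Bcl2l1, 0.50 and 0.81 for Bcl2l2, 0.57 and 0.87 for Bok, 0.56 and 0.86 for Ikbkg and 0.42 and 0.73 for Slc2a1, and on the positive controls to 0.10 for Bcl2l11. Genes called were 291, but 189 by the plain test, 596 with no scaling and 658 on the positive controls. Leaving out each sample gave -1.45 to -1.02 for Bnip3, 2.04 to 2.33 for Bnip3l and 1.16 to 1.58 for Optn, all called, and 235 to 310 genes.

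Between P-ERK1/2 Low and adult, Bnip3 (0.09) was -0.03 with median-of-ratios factors, -0.12 after quantile normalization, -0.30 with equal totals, -0.76 with no scaling, -0.72 on the positive controls and -0.02 without Low sample 12, and 0.15 at most with another sample left out. Bnip3l was called at -1.19 with no scaling and -1.15 on the positive controls. Optn was called at -1.13 after quantile normalization, -1.15 with equal totals, -1.60 with no scaling and -1.55 on the positive controls. Genes called were 83, but 54 by the plain test, 240 with no scaling (8 higher, 232 lower), 221 on the positive controls (8 and 213) and 34 with all 4 adult samples. Of the 83, 62 were higher and 21 lower, against 51 and 28 with median-of-ratios factors, 52 and 35 after quantile normalization and 24 and 59 with equal totals.

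Between P-ERK1/2 High and adult, Bnip3 was not called by the plain test (-1.22), on the 6 housekeeping genes (-0.67), with no scaling (-0.40), after subtraction of the 10th percentile (-1.35) or of the negative-control mean (-1.27), on the positive controls (-0.05) or with all 4 adult samples (-0.57), and ranged from -1.37 to -0.93 with single samples left out. Bnip3l was not called after quantile normalization (0.88), with equal totals (0.42) or with all 4 adult samples (1.19). Optn was called at 1.19 on the 6 housekeeping genes, 1.45 with no scaling and 1.80 on the positive controls, and was -0.11 after quantile normalization and -0.78 with equal totals. With equal totals list genes turned to -0.16 for Bak1, -0.32 for Becn1, -0.14 for Fdxr, -0.37 for Kdm3a, -0.35 for Mto1, -0.32 for Pink1 and -0.01 for Tmem173. On the positive controls Bcl2l2 was 0.08 and Irf3 0.07, and with all 4 adult samples Ikbkg was 0.02. Genes called were 284, but 173 by the plain test and 49, all higher, with all 4 adult samples. Of the 284, 225 were higher and 59 lower, against 340 and 8 on the 6 housekeeping genes, 163 and 119 with median-of-ratios factors, 143 and 140 after quantile normalization, 40 and 361 with equal totals, 347 and 2 with no scaling and 420 and 1 on the positive controls.

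With all 4 adult samples, P-ERK1/2 Low against adult gave -1.72 for the log2 ratio of Bnip3l over Bnip3, -1.69 for Optn over Bnip3 and -0.03 for Bnip3l over Optn. For P-ERK1/2 High against adult the same samples gave 1.75 in place of 3.05, 1.01 in place of 1.85 and 0.74 in place of 1.20. Between P-ERK1/2 High and Low, leaving out each sample gave 3.06 to 3.78 for Bnip3l over Bnip3 and 2.39 to 3.04 for Optn over Bnip3, each with the smallest exact p of 0.057 that the fewer samples allow. A count test on recovered counts was planned and not run. The deposited columns mix normalized genes with raw control probes and did not pass a check of units, although counts of the genes could be recovered. No paired analysis was possible because the sample numbers differ between all groups. The causes of these changes were not tested beyond the settings themselves. Of the named list genes, Calcoco2, Cycs, Fdxr, Cyp27a1, Atg14 and Bbc3 exceeded background in 0 of 4 P-ERK1/2 Low samples, and the part of depth in this was not tested.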
